A study of Mus musculus with 4 samples.

Results

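Solute carriers and ATP-binding cassette (ABC) proteins were followed in mouse liver on 4 oligonucleotide arrays. A gene was taken when its probe set carried a single symbol of the form Slc followed by a digit, or Abc followed by a letter from a to g, and when that probe set was called Present, the array software's word for detected, on at least 1 array. Slc37a4, Slc7a2, Slc10a1 and Abcb11 were not taken. Where a gene had several probe sets, the one with the highest mean signal was read. This gave 105 genes, 86 Slc and 19 Abc, of the 5068 genes measured by the same detection rule. The array carried 173 such genes (148 Slc and 25 Abc), and 68 of them were Present on no array, among them Slc7a5, the light chain that pairs with Slc3a2, and Slc2a1, a glucose carrier of red cells and brain. The rule goes by symbol, so it also took 2 adaptor proteins, Slc9a3r1 and Slc4a1ap, and 4 soluble ABC proteins that act in translation and ribosome recycling and move no solute across a membrane.

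Total liver RNA of male C57BL/6 mice was hybridised to Affymetrix MG_U74Av2 GeneChips, 1 array for each combination of an operation and a time of day. The sham-operated mice kept their adrenal glands and had standard chow and plain water. The adrenalectomised (ADX) mice had lost both adrenal glands, through a dorsal approach under ketamine and xylazine, and had standard chow and drinking water with 0.9% NaCl. Liver was taken at zeitgeber time (ZT) 2, early in the light phase, or at ZT14, early in the dark phase, with ZT in hours from lights on. Adrenalectomy removes the adrenal steroids and adrenaline together, and the labels name no hormone replacement. The labels do not give the age or the number of animals behind an array.

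Solute carriers move sugars, amino acids, vitamins, ions, metals and metabolites down or against gradients without splitting ATP themselves, and the Slc25 family does so across the inner mitochondrial membrane. ABC transporters split ATP to export lipids, bile constituents, drugs and conjugates, or to move substrates across the membranes of peroxisomes, mitochondria and lysosomes. In the liver these proteins link blood, hepatocyte and bile, and several are known targets of nuclear receptors that sense bile acids, oxysterols and fatty acids.

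Levels are given as signal, an intensity on a linear scale after each array was brought to a common trimmed mean. Differences are in log2 units, after signals under a floor of 3.91 were set to it. A call in a comparison needed a difference of 2-fold or more and a Present call on the brighter array. Because each group was 1 array, this is a rule of size without a replicate check. Where 2 arrays are said to lie above or below the other 2, the order is only described. It can arise without a change, and how many of all genes showed it was not counted. A fold over a dimmer array that was Marginal or Absent is a lower bound, written as at least. Array values are listed as sham ZT2, then sham ZT14, then ADX ZT2, then ADX ZT14 unless stated otherwise. Between the arrays, hepatocyte markers (5 of 5 on the array Present) summed to between 22960 and 24270, and no bile duct, adipose or skeletal muscle marker was Present. Blood and immune markers (4 of 5 Present) summed to between 326 and 441, endothelial markers (2 of 3) to between 87.05 and 107, and stellate markers (2 of 3) to between 140 and 184. In bulk liver a lower signal from fewer cells of a type cannot be told apart from less RNA per cell.

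The promoters of 4 genes are shown, because the results on time of day and on the operation turn on them: the 2 genes past 2-fold the same way in both day-night pairs (Slc5a6 and Slc44a1), and 2 that passed 2-fold between operations (Slc20a1 and Abcb10). Each run is the 250 bases before the first start site listed for the gene, 5′ to 3′, from RefSeq promoter windows of assembly GRCm38.p6, and capitals mark E-boxes (CACGTG), the element bound by CLOCK and BMAL1 among other factors. The runs lie at chr5:31048563-31048812 on the minus strand for Slc5a6, chr4:53440163-53440412 on the plus strand for Slc44a1, chr2:129198523-129198772 on the plus strand for Slc20a1, and chr8:123983123-123983372 on the minus strand for Abcb10.
Slc5a6: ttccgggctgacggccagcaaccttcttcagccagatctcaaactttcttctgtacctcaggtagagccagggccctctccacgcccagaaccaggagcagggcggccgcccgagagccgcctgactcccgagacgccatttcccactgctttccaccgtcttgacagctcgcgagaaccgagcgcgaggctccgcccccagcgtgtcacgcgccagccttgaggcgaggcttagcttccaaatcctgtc
Slc44a1: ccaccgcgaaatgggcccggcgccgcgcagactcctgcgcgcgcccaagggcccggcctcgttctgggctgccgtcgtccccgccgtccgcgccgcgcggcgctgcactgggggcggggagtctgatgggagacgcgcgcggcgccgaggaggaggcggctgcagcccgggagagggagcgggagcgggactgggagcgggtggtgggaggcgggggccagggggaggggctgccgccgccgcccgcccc
Slc20a1: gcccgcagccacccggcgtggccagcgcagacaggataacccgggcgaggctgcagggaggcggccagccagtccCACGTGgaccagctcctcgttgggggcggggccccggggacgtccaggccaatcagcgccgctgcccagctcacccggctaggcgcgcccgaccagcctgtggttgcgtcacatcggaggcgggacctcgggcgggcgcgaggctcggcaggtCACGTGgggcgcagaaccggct
Abcb10: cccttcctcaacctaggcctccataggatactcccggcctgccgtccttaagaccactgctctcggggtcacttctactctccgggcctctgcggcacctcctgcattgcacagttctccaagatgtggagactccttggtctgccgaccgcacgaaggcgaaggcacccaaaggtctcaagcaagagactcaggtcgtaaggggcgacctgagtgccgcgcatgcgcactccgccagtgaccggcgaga
The Slc20a1 run holds 2 E-boxes, whose first bases lie at -175 and -22 from the start site, and the other 3 runs hold none. The search covered both strands of the full window, 250 bases before to 50 after the start, for the E-box CACGTG, the D-box TTATGTAA and the glucocorticoid receptor half-site AGAACA. The 3 motifs are different words, so no match counted under one was also a match to another, and no D-box or half-site lay in the 4 windows. The other start site listed for Slc20a1 had a half-site at -204 and no E-box, and the other windows of Slc5a6 and Slc44a1 had none of the 3 motifs.

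Windows were at hand for 85 of the 105 genes, 122 windows in all. The E-box lay in 11.5% of them, against 7.15% of all 32851 mouse windows of that length. Its 13 genes included the cholesterol exporter Abca1, the citrate carrier Slc25a1, the ornithine carrier Slc25a15 and the nucleoside carrier Slc29a1. The half-site lay in 13.1% of the transporter windows against 19% of all windows, and the D-box in 0.82% against 0.938%, with Slc17a1 as its only gene. Of the 13 E-box genes, Slc20a1 alone was called in any comparison, where 11.2% of all genes were called in at least 1. With 13 genes nothing is read from this count. A match describes letters in the window and is not evidence of binding.

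The highest array was under 1.5-fold above the lowest for 64 of the 105 genes (61%), close to the 58.7% of all genes. In at least 1 comparison 13 genes were called (12.4%), near the 11.2% of all genes, and 92 were called in none. The called genes were mostly dim, with 10 of 13 at a mean signal under 50. Of the 79 genes Present on all 4 arrays, 3 were called in any comparison (3.8%), where 5.58% of such genes overall were. Over the 105 genes the median difference between times was 0.06 with sham operation and 0.07 after ADX, beside 0.00 and 0.01 over all 5068 genes. The median difference between operations was 0.03 at ZT2 and 0.07 at ZT14, beside 0.01 and 0.03.

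**Figure D1:**
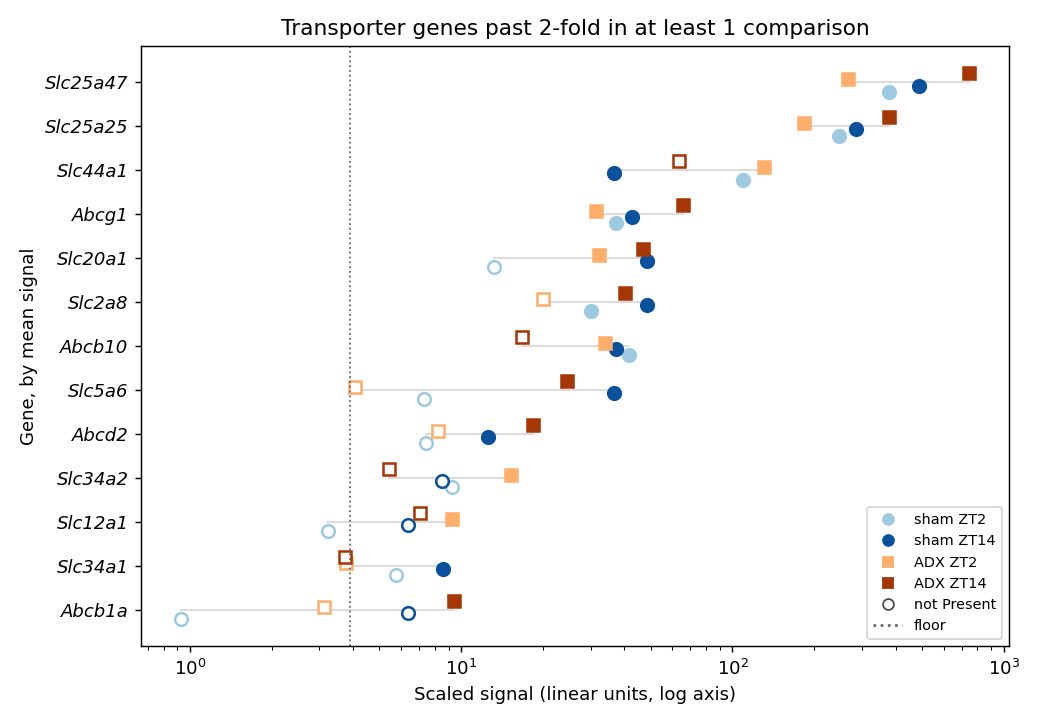
Signal of the 13 called genes on each array (log axis, linear signal units), with circles for sham and squares for ADX and lighter colours for ZT2. Open symbols were not Present and the dotted line is the floor of 3.91. Slc25a47, Slc25a25 and Abcg1 are filled on all 4 arrays, with their highest signal on the ADX ZT14 array.

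Between ZT2 and ZT14, sham livers showed few transporter genes past 2-fold. Higher at ZT14 were 2 of 105 genes (1.9%), Slc5a6 and Slc20a1, where 3.08% of all genes were called higher, and 1 gene (0.952%), Slc44a1, was lower, where 2.19% of all genes were. None of the 79 genes Present on all 4 arrays was called, against 3.36% of such genes overall. That depends on the probe set for 2 of them. Slc30a5 differed by 0.83 on the probe set read and by 1.31 on its dimmer one, also Present on all 4 arrays. Slc6a6 differed by -0.04 on the probe set read and by -1.04 on its dimmer one, Absent at sham ZT14. In the ADX pair 7 genes (6.67%) were higher at ZT14, Slc5a6, Slc25a47, Abcb1a, Abcd2, Abcg1, Slc25a25 and Slc2a8, where 2.58% of all genes were. In the same pair 3 genes (2.86%), Slc34a2, Slc44a1 and Abcb10, were lower, where 2.11% of all genes were. Of the 79, 3 were called (3.8%), against 2.64% overall. The count of 10 in ADX rests partly on dim probe sets, and was 3 when both arrays had to be Present. By that rule 62 of the 5068 genes were called higher and 48 lower.

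Slc5a6, the sodium-dependent carrier of biotin, pantothenate and lipoate, had a signal of 7.31 at ZT2 and 36.6 at ZT14 in sham, and of 4.07 at ZT2 and 24.6 at ZT14 in ADX. Both ZT14 arrays were high and Present, and both ZT2 arrays were low and not Present, with no overlap between the times. The ZT14 signal was at least 5.01-fold higher in sham and at least 6.04-fold higher in ADX (log2 differences of 2.33 and 2.59). A limma fit with additive terms for time and operation took every probe set with 2 or more Present arrays. Slc5a6 entered it only through the arrays of the time at which it was high, so its p for time is not given. With the floor raised to the 95th percentile of Absent signals, 23.9, the differences were 0.62 and 0.04 and neither call remained.

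Slc44a1, a choline carrier of the plasma and mitochondrial membranes, ran the other way. Its signal was 109.6 at ZT2 and 36.5 at ZT14 in sham, and 130.4 at ZT2 and 63.4 at ZT14 in ADX, the last called Marginal. Both ZT14 arrays lay below both ZT2 arrays. It was 3.005-fold lower at ZT14 in sham and at least 2.06-fold lower in ADX (differences of -1.59 and -1.04). The sham call held under all 12 alternatives tried, but some of those could not have lost it. The gene has 1 probe set, and the looser fold and detection rules keep every call. The additive fit gave -1.31 (SE 0.21), adjusted p = 0.226. The exocrine pancreas markers (1 of 2 Present, Cela1, with Prss2 not Present) summed to 131, 77.8, 143 and 95.8, the same order of arrays as Slc44a1, and their part in the result was not tested. The related Slc44a2 and Slc44a4 differed by 0.31 and 0.43 in sham, and by 0.17 and 0.52 in ADX, above zero in both pairs where Slc44a1 was below it.

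Slc20a1, a sodium-phosphate cotransporter found in most tissues, stood at 13.2, 48.3, 32.2 and 46.97. A single array, sham ZT2, was low and called Absent, and the other 3 were Present and within 32.2 to 48.3. That array enters both of its calls, at least 3.65-fold higher at ZT14 in sham (1.87) and at least 2.44-fold higher in ADX than in sham at ZT2 (1.28). In ADX the day-night difference was 0.54. With the raised floor the sham day-night value was 1.02 and still called, and the ADX against sham value at ZT2 was 0.43 and not called.

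**Figure D2:**
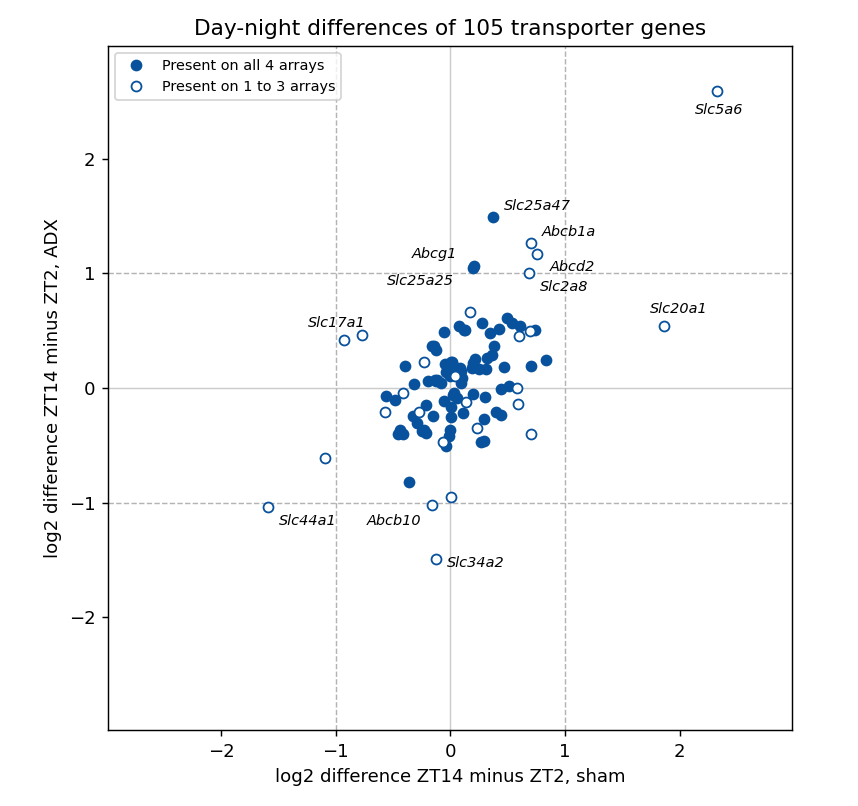
Day-night log2 difference (ZT14 minus ZT2) of each of the 105 genes in the sham pair (horizontal) and the ADX pair (vertical), which share no array. Dashed lines mark 2-fold and open symbols genes Present on 1 to 3 arrays. Slc5a6 lies past 2-fold on both axes at the top right and Slc44a1 on both at the lower left, while most genes lie within 2-fold on both.

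A looser rule of at least 1.5-fold the same way in both pairs took 3 genes higher at ZT14 (2.86%), Slc5a6, Abcd2 and Slc2a8, where 2.15% of all genes were taken. It took 1 gene lower (0.952%), Slc44a1, where 2.19% of all genes were. Abcd2, a peroxisomal carrier of very long chain fatty acyl-CoA, had signals of 7.40, 12.5, 8.24 and 18.5. Both ZT14 arrays were Present and above both ZT2 arrays, which were Absent, with differences of 0.76 in sham and 1.16 in ADX. Like Slc5a6 it entered the fit only through those arrays, and its p for time is not given. Slc2a8, an intracellular glucose and trehalose carrier, had signals of 29.98, 48.3, 20.02 and 40.1. Both ZT14 arrays again lay above both ZT2 arrays, with differences of 0.69 in sham and 1.004 in ADX. The ADX ZT2 array was Marginal, so the ADX fold is at least 2.005. The ADX value sits on the 2-fold line and fell just short of it with quantile normalisation (0.96), with signals as deposited (0.97) and with a common median (0.98). The call was also lost with the raised floor (0.75) and when both arrays had to be Present.

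The additive fit covered 94 of the transporter genes and none passed an adjusted p of 0.05 for time, where 0.0341% of the 5872 probe sets fitted did. At an unadjusted p under 0.05 there were 13 of 94 (13.8%), close to the 13.2% of all probe sets. With the variance allowed to follow the mean signal, 4 of 94 (4.26%) passed the adjusted threshold for time, Slc5a6, Slc44a1, Slc2a2 and Slc9a3r1, where 2.62% of all probe sets did. These counts take in 4 genes Present only on both arrays of 1 time (Slc5a6, Abcd2, Slc3a1 and Slc30a4), which the filter chose partly by that difference, so nothing is read from the counts. The fit leaves 1 residual degree of freedom. It takes the operations as the replicates of a time and the times as the replicates of an operation, which the labels do not state, so its p-values speak of the spread among 4 arrays, which may be technical.

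Slc2a2, the bidirectional glucose carrier of the hepatocyte membrane (GLUT2), had signals of 573, 873, 524 and 763. Both ZT14 arrays lay above both ZT2 arrays. The difference was 0.61 in sham and 0.54 in ADX, under 2-fold in each. Genes Present on both arrays with a mean signal of 100 or more had a robust SD of 0.27 in both pairs. The fit gave 0.58 (SE 0.15), adjusted p = 0.32. Slc9a3r1, the scaffold that anchors carriers at the apical membrane, was at 431, 718, 477 and 680, again with the ZT14 arrays above the ZT2 arrays (0.74 and 0.51). Abcc2, which exports bilirubin conjugates into bile, was at 96.0, 135, 96.2 and 147, and differed by 0.49 and 0.61. Slc22a5, the plasma membrane carnitine carrier, was dimmer at 19.7, 28.6, 21.3 and 31.5, with differences of 0.54 and 0.57. All 4 genes were Present on every array. How many of all genes had both ZT14 arrays above both ZT2 arrays was not counted, so nothing is read from that order alone.

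Among the genes Present on all 4 arrays, Slc25a47, Abcg1 and Slc25a25 had the largest gaps between the day-night differences of the operations, followed by Slc35e1. Slc25a47, a liver-enriched mitochondrial carrier, had a signal of 378 at ZT2 and 489 at ZT14 in sham, and of 266 at ZT2 and 747 at ZT14 in ADX. Its ADX arrays were the lowest and the highest of the 4, with the sham arrays between them. The ZT14 signal was 1.29-fold higher in sham and 2.81-fold higher in ADX (0.37 and 1.49). The gap of 1.12 was not tested, since it takes all 4 arrays and leaves no error.

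Slc25a25, a calcium-regulated ATP-magnesium and phosphate carrier of mitochondria, had the same order of arrays, with 247, 285, 184 and 379. Its day-night difference was 0.20 in sham and 1.04 in ADX, or 2.06-fold. Abcg1, which moves cholesterol to high density lipoprotein and is a known oxysterol receptor target, was at 37.2, 42.8, 31.4 and 65.8. Here too the sham arrays lay between the ADX arrays, and the ADX difference was 2.10-fold (1.07, against 0.20 in sham). The ADX calls of these 3 genes held under all 12 alternatives, but some of those could not have lost them. Each gene has 1 probe set, so the alternatives on probe sets repeat the main value. The looser fold and detection rules keep every call. Slc35e1, an orphan of the nucleotide sugar carrier family, ran the opposite way, with 43.4, 53.2, 49.1 and 35.8 and differences of 0.29 in sham and -0.46 in ADX. Its dimmer probe set gave 0.60 and 0.36, so its ADX direction depends on the probe set. Slc35b1, which carries ATP into the endoplasmic reticulum, had nearly the same values of 0.27 and -0.47 from signals of 402, 484, 466 and 337. Neither gene was called.

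The other calls in the ADX pair came from dim genes. Abcb1a, the drug-exporting P-glycoprotein, was Present on the ADX ZT14 array alone, at 9.39, with 3.13 at ADX ZT2, 6.35 at sham ZT14 and 0.925 at sham ZT2, so its ADX fold of at least 2.40 is measured from the floor. Slc34a2, a sodium-phosphate cotransporter of epithelia, was Present on ADX ZT2 alone, at 15.3, with 5.44 at ADX ZT14, 9.25 at sham ZT2 and 8.50 at sham ZT14, and was at least 2.82-fold lower at ZT14 in ADX. Abca2, a lysosomal lipid transporter, differed by -1.09 in sham (49.2 at ZT2, 23.1 at ZT14), but its brighter array was Marginal and it was not counted.

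Between operations fewer genes passed 2-fold. At ZT2, 2 genes were higher in ADX (1.9%), Slc20a1 and Slc12a1, where 1.44% of all genes were, and none was lower, where 0.73% of all genes were. At ZT14 none was higher, where 1.93% of all genes were, and 2 were lower (1.9%), Abcb10 and Slc34a1, where 1.32% of all genes were. On the probe sets read, none of the 79 genes Present on all 4 arrays was called at either time. Of such genes overall 0.615% were called at ZT2 and 1.02% at ZT14. No transporter gene differed by 1.5-fold the same way at both times, where 0.789% of all genes were higher in ADX by that rule and 0.335% lower. When both arrays had to be Present, the counts were 0 at each time. By that rule 17 of the 5068 genes were higher in ADX and 12 lower at ZT2, and 22 and 22 at ZT14.

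Abcb10, a haem-related transporter of the inner mitochondrial membrane that is abundant in red cell precursors, had signals of 41.5 at ZT2 and 37.2 at ZT14 in sham, and of 33.99 at ZT2 and 16.8 at ZT14 in ADX. The ADX ZT14 array alone was low and Absent. It entered both calls, at least 2.22-fold lower than sham at ZT14 (-1.15) and at least 2.03-fold lower than ADX at ZT2 (-1.02). The red cell markers, 2 of 2 Present, summed to 1755, 1052, 1468 and 1960, highest on the array where Abcb10 was lowest, and their part in the result was not tested. With the raised floor the calls of Abcb10, Abcb1a, Abcd2, Slc2a8, Slc34a2, Slc12a1 and Slc34a1 were all lost.

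Slc12a1 and Slc34a1 are best known from kidney tubules, as the loop diuretic-sensitive chloride cotransporter and as the main phosphate reabsorbing carrier. Slc12a1 was Present on ADX ZT2 alone, at 9.28, with 3.24 at sham ZT2, 6.35 at sham ZT14 and 7.04 at ADX ZT14. Slc34a1 was Present on sham ZT14 alone, at 8.60, with 5.74 at sham ZT2, 3.75 at ADX ZT2 and 3.74 at ADX ZT14. Both genes lay under a signal of 10 on every array. The kidney list (Umod, Kap and Slc12a1 itself) summed to 7.68, 11.3, 15.1 and 51.02, with Umod not Present on any array, and its part in these values was not tested.

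For operation the additive fit called none of the 94 genes, as it called 0% of all probe sets. At an unadjusted p under 0.05 there were 3 (3.19%), against 5.6% of all probe sets. Those were Slc5a6, with an estimate of -0.71 (SE 0.17), the amino acid carrier Slc38a2 with -0.62 (SE 0.17) and the monocarboxylate carrier Slc16a7 with 0.56 (SE 0.15), each at adjusted p = 0.83. The Slc5a6 estimate takes in a ZT2 difference of -0.85 between arrays that were both Absent, so it rests partly on undetected signals. Slc38a2 is a glutamine and alanine carrier regulated by amino acid supply. In the order ZT2, ZT14, its signals were 37.6 and 36.4 on the sham arrays and 22.4 and 25.9 on the ADX arrays. Both ADX arrays lay below both sham arrays. Slc16a7, which carries pyruvate and lactate, was at 41.7 and 48.4 in sham and 60.7 and 72.5 in ADX, with both ADX arrays above. The other probe sets of Slc2a8, Slc38a2 and Slc39a4 were Absent on all arrays and add nothing to these values.

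**Figure D3:**
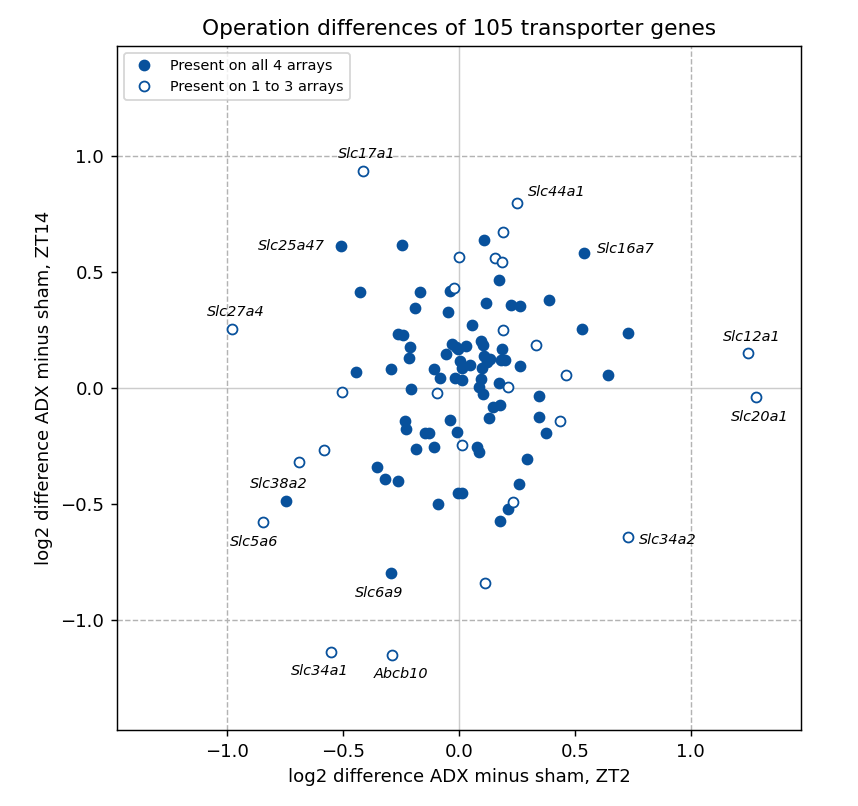
Log2 difference ADX minus sham of each of the 105 genes at ZT2 (horizontal) and ZT14 (vertical), which share no array. Dashed lines mark 2-fold and open symbols genes Present on 1 to 3 arrays. Every gene past 2-fold is an open symbol past it on 1 axis only, and Slc16a7 and Slc38a2 lie off zero on both axes in opposite corners.

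By class, the calls were spread over several kinds of carrier. Of all genes 11.2% were called in at least 1 comparison. The classes have 15 genes or fewer, so nothing is read from the count of calls in a class. The 15 mitochondrial carriers held 2 ADX calls (Slc25a47 and Slc25a25), where 2.58% of all genes were called higher, with 11 of 15 above zero in each day-night pair, where 49.2% of all genes were in sham and 50.9% in ADX. Their medians were 0.08 in sham and 0.23 in ADX. Their brightest probe set belonged to Slc25a39, linked to mitochondrial glutathione import, at 831, 888, 859 and 952. Slc25a15, which imports ornithine for the urea cycle, was at 1048, 895, 873 and 677, and both its ADX arrays lay below the sham array of the same time (-0.26 and -0.40). Slc25a20, the carnitine-acylcarnitine carrier, stayed between 340 and 392.

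Of all genes 11.2% were called in at least 1 comparison. The 10 amino acid and peptide carriers held no call in any, on the probe sets read. Their medians were -0.04 in sham and -0.10 in ADX. Slc38a4, a neutral amino acid carrier abundant in hepatocytes, was at 1190, 1191, 1217 and 1351. Slc3a2, the heavy chain that brings amino acid exchangers to the membrane, was at 143, 96.7, 119 and 114, with differences of -0.56 in sham and -0.07 in ADX. Slc6a9, a glycine carrier, was at 90.7, 147, 74.0 and 84.8, highest on sham ZT14. Slc3a1, a cystine carrier subunit, lay just inside the 2-fold line at -0.95 in the ADX pair, with an Absent ADX ZT14 array.

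The 14 inorganic ion genes held 4 of the 13 called genes, where 11.2% of all genes were called in at least 1 comparison. They were Slc20a1, Slc34a2, Slc12a1 and Slc34a1, each of them Absent or Marginal on at least 1 array. Whether the class held more calls than other genes was not tested. The class had a median of 0.34 in sham, with 11 of 14 above zero, and 0.04 in ADX, with 8 above zero, beside the 49.2% and 50.9% of all genes. The 14 metal carriers held no call on the probe sets read, with medians of -0.05 and -0.10. Their brightest was Slc31a1, the copper importer, which stayed between 505 and 596. Slc39a4, a zinc importer, was at 284, 210, 286 and 223, with both ZT14 arrays below both ZT2 arrays (-0.44 and -0.36). Slc11a2, an iron importer, differed by -0.36 and -0.82 on its brighter probe set and by 0.87 and 1.102 on its dimmer one. The dimmer one was Marginal at sham ZT2 and Absent on both ADX arrays, so its ADX value compares undetected signals.

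Of the 3 fatty acid transport proteins, Slc27a2, a very long chain acyl-CoA synthetase, was at 1796, 2067, 1813 and 2114, with both ZT14 arrays above both ZT2 arrays by a small margin (0.20 and 0.22). Slc27a5, the bile acid-CoA ligase, stayed between 1139 and 1205. The peroxisomal acyl-CoA carrier Abcd3 was at 2680, 2156, 2306 and 2362 (-0.31 in sham, 0.03 in ADX). The dim Slc27a4 differed by -0.77 in sham and 0.46 in ADX.

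Among 4 ABC lipid transporters only Abcg1 was called. Abcb4, which flips phosphatidylcholine into bile, was at 335, 337, 328 and 385, and Abca1, which loads cholesterol onto apolipoprotein A-I, was at 174, 182, 196 and 184. Of 6 drug and conjugate pumps, Abcc3, which exports conjugates to the blood, was at 477, 505, 572 and 645, and Abcg2 stayed between 145 and 170. The nonmembrane Abcf1, a translation factor, was higher in ADX at both times, by 0.39 and 0.38, from 139, 160, 182 and 208.

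Of the other classes, the 8 nucleotide sugar and acetyl-CoA carriers, the 6 organic ion carriers and the 2 monocarboxylate carriers held no call. Over all genes the share called in at least 1 comparison was 11.2%. Slc22a30, the brightest organic ion carrier probe set, stayed between 479 and 565. Slc16a1, the lactate carrier, was at 19.1, 14.0, 16.4 and 12.4. Among the 6 vitamin and nucleoside carriers the call was Slc5a6, and Slc29a1, an equilibrative nucleoside carrier, was at 334, 332, 314 and 235, lowest on ADX ZT14. Of the 3 sugar carriers Slc50a1 stayed between 34.01 and 37.7. In the class of other carriers, Slc66a2 was at 166, 204, 215 and 179.

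**Figure D4:**
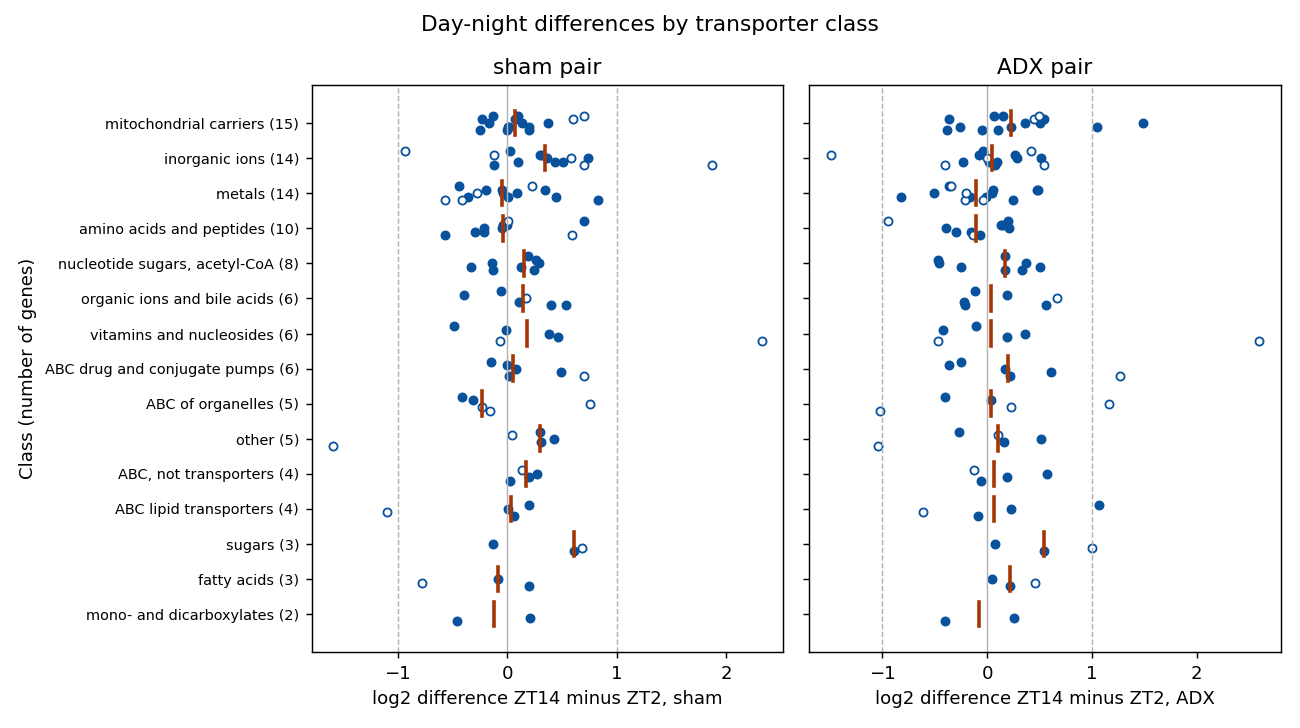
Day-night log2 difference of each gene by class, in the sham pair and the ADX pair, with the number of genes in brackets, a bar at the class median and dashed lines at 2-fold. Open symbols are genes Present on 1 to 3 arrays. Most medians lie near 0, and the sugar class (3 genes) lies at 0.61 in sham and 0.54 in ADX.

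Genes around these transporters were read the same way. Of 17 other membrane transporters on the array, 9 were measured. Above zero lay 8 in the sham pair and 5 in the ADX pair, beside 49.2% and 50.9% of all genes. With 9 transporters nothing is read from these counts. In day-night pairs, 1 was called higher in sham (Slc37a4) and in ADX 1 was called higher (Slc7a2) and 1 lower (Atp11a). Of all genes 3.08% were called higher and 2.19% lower in sham, and 2.58% and 2.11% in ADX. Between operations 2 were called higher in ADX at ZT2 (Atp11a and Slco3a1) and 1 lower at ZT14 (Slc37a4), where 1.44% and 1.32% of all genes were. Of 17 regulators of transporter genes, 14 were measured and none was called in either day-night pair, beside the same day-night shares of all genes. Both ZT14 arrays lay above both ZT2 arrays for Ppara, the fatty acid receptor (0.78 in sham, 0.72 in ADX), Srebf1, a lipogenic regulator (0.60 and 0.71), and Nr1h4, the bile acid receptor (0.68 and 0.43). The repressor Nr0b2 lay the other way (-0.69 and -0.72). The share of all genes with such an order of arrays was not counted. Myc was the one regulator called between operations, lower in ADX at both times (-1.50 and -1.25). Its signals were 11.2 and 11.4 in sham, and 3.96 and 4.80 in ADX, where it was Absent. Of all genes 0.73% were called lower in ADX at ZT2 and 1.32% at ZT14.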

How the data were processed

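Per the file headers, the deposited values are Affymetrix Signals, a linear intensity for every probe set beside its detection call. Which software and scaling made them was not given in the sources used here. Signals were scaled to a common 2% trimmed mean (factors 0.925 to 1.07), floored at 3.91, the higher of the lowest Present and median Absent signal, and taken to log2 in Python 3.11.15 (pandas 2.3.3, NumPy 2.4.6). The additive model used limma 3.58.1 (lmFit, eBayes) in R 4.3.3, with Benjamini-Hochberg adjustment over 5872 probe sets Present on at least 2 arrays. Probe sets were named from the platform annotation: 10855 had 1 symbol, 396 several and 1237 none. A transporter symbol on 1 probe set with several symbols was left out. Array number limits the precision. The 2-fold rule and the additive fit were tried on simulated data. Those took probe sets Present on all 4 arrays with every call Present. They did not try the detection rule or the floor of 3.91, on which most calls rest.

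The rule for genes to name took those past 2-fold per comparison, the largest gaps between day-night differences, the brightest probe sets overall and per class, the smallest p of the fit, and listed partners. Slc22a5, Slc39a4, Slc11a2, Slc25a20, Slc6a9, Slc44a2, Slc44a4, Slc27a4, Slc50a1, Slc30a5, Slc6a6, Abcg2, Abcf1, Abca2 and Slc17a1, and the regulators named, were chosen after their values were seen. Members and lists were chosen with earlier results of these data known. Brightness of different probe sets does not order genes by level. Alternatives changed the scaling, floor, detection rule, fold and probe set.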

Additional observations from a re-analysis of the deposited data

Results flagged for a closer look

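Genes are given here whose difference under the same contrast pointed opposite ways in the 2 groups, by at least 25% each way with the brighter array Present, and by at least 1.5-fold in 1 of them. The rule took 2 genes, others of opposite sign fell short of it, and neither pattern was tested, because each group was 1 array. Slc17a1, a phosphate and organic anion carrier, lay lower at ZT14 in sham (-0.93) and higher in ADX (0.42), so its ADX minus sham difference was -0.41 at ZT2 and 0.94 at ZT14. Its signals were 15.8 at ZT2 and 8.31 at ZT14 in sham, and 11.9 at ZT2 and 15.9 at ZT14 in ADX, and the sham ZT14 array was Absent. Its dimmer probe set had the same signs (-0.52 in sham, 0.37 in ADX), but was Marginal at sham ZT2 and Absent on both ADX arrays, so it adds little. Slc25a47 lay lower in ADX than in sham at ZT2 (-0.51) and higher at ZT14 (0.61), with all 4 arrays Present.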

How the results depend on the processing

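No call changed direction under the alternatives tried, but uncalled values did. Slc11a2, and Slc35e1 in ADX, change sign with the probe set, though the dimmer Slc11a2 one was Absent on both ADX arrays. With signals as deposited the median of the transporter genes was -0.02 in the sham pair, against 0.06. Between operations it was -0.12 at ZT2, against 0.03, and -0.06 at ZT14, against 0.07. The counts of called genes were 3 for sham day-night, 10 for ADX day-night, 2 between operations at ZT2 and 2 at ZT14, and this order is kept here. With the floor raised to 23.9 the last 3 became 4, 0 and 0. Of all 5068 genes, 48 were then called higher and 48 lower, 7 and 8, and 18 and 16. With both arrays Present the 4 became 1, 3, 0 and 0. Of all genes, 87 were then called higher and 63 lower, 62 and 48, 17 and 12, and 22 and 22. With the floor at 2 times its value the operation counts became 1 and 1. Of all genes, 35 were then called higher and 21 lower, and 50 and 43. At 1.5-fold the sham pair held 13 (12.4%, against 16% of all genes) and the ADX pair 14 (13.3%, against 15.1%). The operation comparisons held 8 (7.62%, against 9.12%) and 7 (6.67%, against 12.1%). Taking the second probe set of a gene gave 5 in the sham pair, with Slc30a5 (1.31) and Slc6a6 (-1.04) added. By that choice 167 of all genes were called higher and 124 lower. Between operations at ZT2 it gave 3, with Slc6a6 (-1.43) added, where 81 of all genes were higher and 46 lower. The fit with a variance trend called 4 genes, against 0. Of all genes called, the share higher was 58.4%, 55.0%, 66.4% and 59.4%, and with quantile normalisation 46.6%, 43.03%, 45.9% and 47.2%, with signals as deposited 46.6%, 49.8%, 41.5% and 41.4%. Signals as deposited moved the median of all genes at ZT2 to -0.16, so differences there are relative to that shift. Dim signal limits most calls. Among genes Present on both arrays of a comparison, those under a mean signal of 30 had a robust SD of 0.40 to 0.46. At 100 or more it was 0.17 to 0.27. Most calls had a dimmer array that was not Present, so these spreads do not cover them. No paired analysis was possible because each group was 1 array.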
